A study of Mus musculus with 4 samples.

Results

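The genes described here are 10 extracellular matrix and fibrosis genes of the mouse heart, taken by name from a deposited table of 14469 genes with TFIIB regions: Col1a1, Col1a2, Col3a1, Col4a1, Col4a2, Fn1, Sparc, Ctgf (now Ccn2), Postn and Adamts1. All 10 were listed in the table, with 38 different regions between them out of 20364. The series is a ChIP-seq study of TFIIB, the product of Gtf2b, in the whole heart of C57BL/6 mice. There was 1 ChIP library from hearts after 4 days of transaortic coarctation (TAC) at 12 weeks, an operation that narrows the aorta and which the protocol describes for male mice. There was 1 ChIP library from postnatal hearts aged 1 to 2 days, 1 from normal hearts at 12 weeks, and 1 library of input DNA, made with no antibody. No group carries a transgene or mutation, and the number of hearts behind a library is not given in the sources used here. Each group has 1 library, so the values carry no replicate error and conditions could not be tested against each other. The per-library columns of the tables are coded by names that match no sample label, so hearts after TAC, neonatal hearts and adult hearts were not compared, and every value below is one that the tables give over the libraries together. Read depth is unknown from these tables.

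TFIIB is the general transcription factor that joins TATA-binding protein to RNA polymerase II at the start of a gene, so a TFIIB region at a promoter marks a site where a preinitiation complex can assemble. The matrix genes described here encode the fibrillar collagens that give the heart wall its tensile strength, the collagen of basement membranes, an adhesive glycoprotein, matricellular proteins that tune the contact between cells and matrix, and a secreted protease. In the heart most fibrillar collagen is made by fibroblasts, while basement membrane collagen is also made by endothelial cells and cardiomyocytes. Chromatin of all these cells is mixed in a whole heart, so more cells of a type and more TFIIB per cell cannot be told apart.

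All 10 genes carried TFIIB over their start. The annotated start lay inside a region at 10 of 10 genes, against 75.6% of all genes in the table. The centre of a region lay no farther than 1000 bp from the start at 9 of 10 genes, the exception being Sparc, against 76.5% of all genes. The authors' deposited peak value was read as the highest signal found in the regions of a gene, in whichever library it was highest. That it is a maximum over libraries was not checked, and its scale is not stated. The peak value was 218 at Adamts1, 170 at Ctgf, 141 at both Col4a1 and Col4a2, and 78 at Sparc. It was 68 at Col3a1, 57 at both Col1a1 and Fn1, 55 at Postn and 44 at Col1a2. The median over the 10 was 73, against 34 over all genes. At or above the 75th percentile of all genes, a peak value of 47, were 9 of the 10, against 25.8% of all genes. At or above the 95th percentile, 87, were 4 of the 10, against 5.04% of all genes. These genes were chosen with earlier results of the same tables known, so their high median describes the chosen genes and is not evidence about matrix genes in general.

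**Figure D1:**
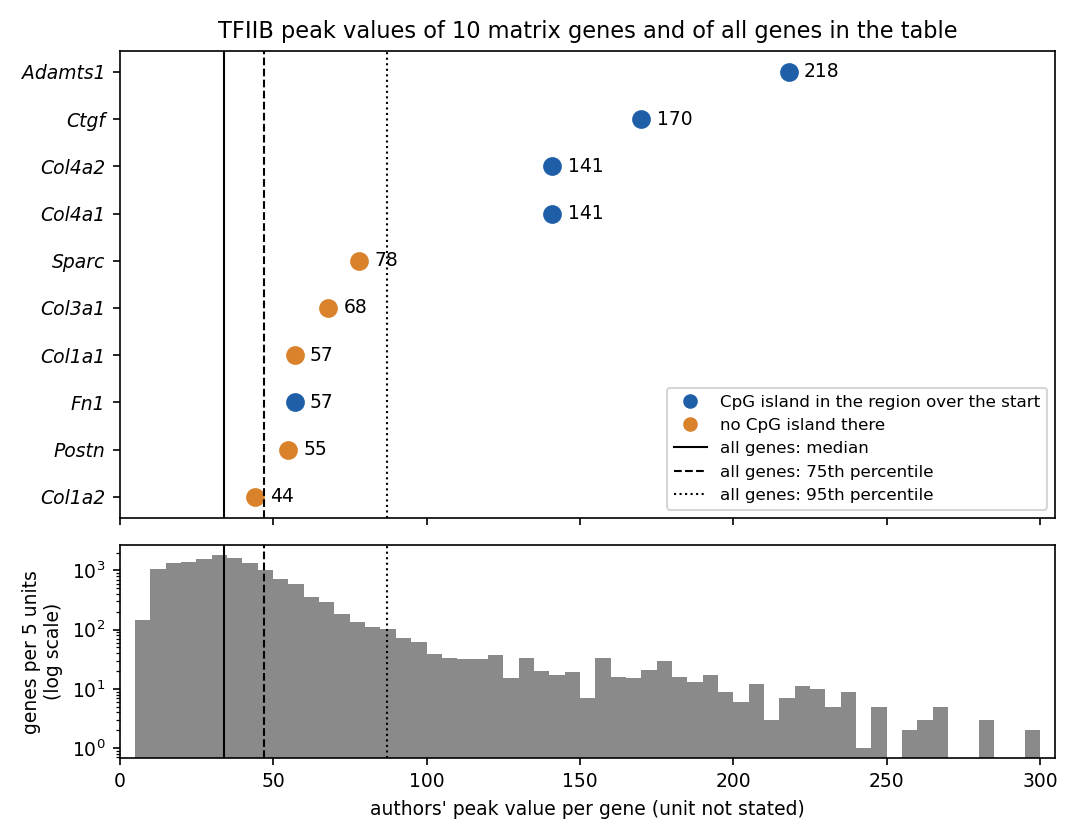
Authors' peak value of each of the 10 genes (upper panel, x axis, unit not stated) above the distribution over all 14469 genes (lower panel, number of genes per bin of 5 units on a log scale). Adamts1, Ctgf, Col4a2 and Col4a1, all with a CpG island in the region over the start, lie between 141 and 218, above the 95th percentile of all genes at 87, while the other 6 lie between 44 and 78.

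The position of the called intervals was tight around the start. An interval is a stretch called in 1 library, and a region is a merger of 1 or more intervals. The nearest interval lay within 100 bp of the start at 9 of 10 genes, against 51.6% of all genes, and within 300 bp at 10 of 10, against 68% of all genes. The exception at 100 bp was Col4a2, whose nearest interval lay 240 bp upstream. Exactly 3 intervals lay within 300 bp of the start at 8 of 10 genes, against 31.2% of all genes. The other genes, Col1a1 and Col3a1, had 2. Col4a1 and Col4a2 are both among the 8, counted from the same 3 intervals. None of the 9 regions over these starts was made of 1 interval, against 17.4% of all regions over a start.

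**Figure D2:**
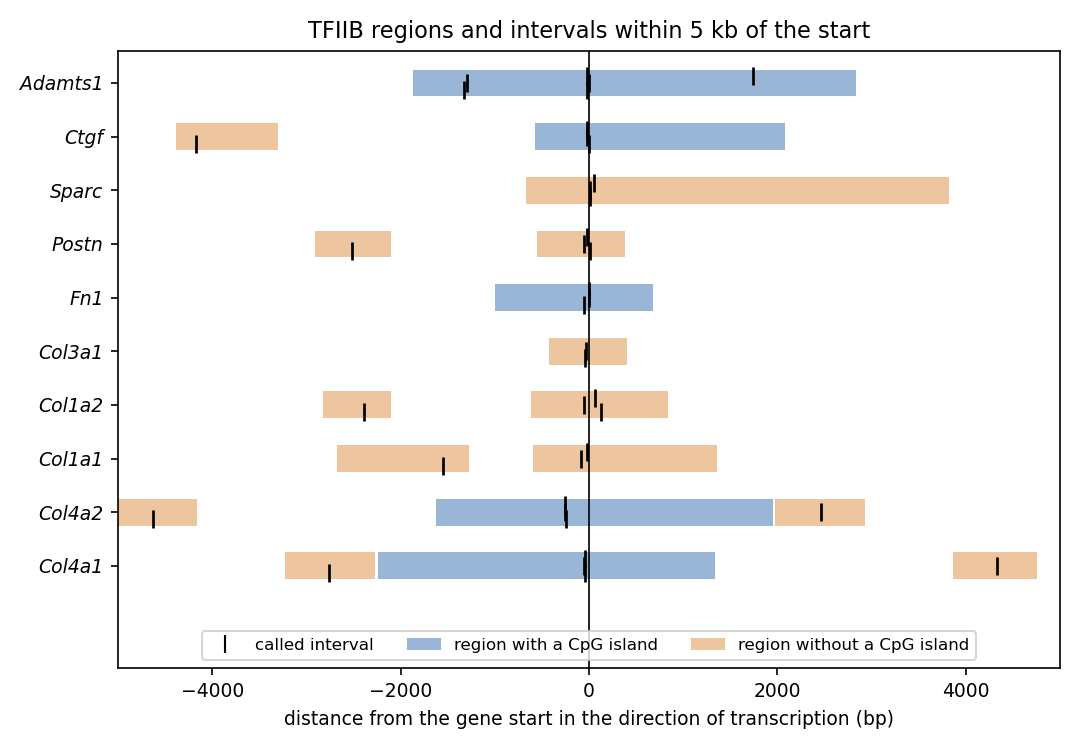
Regions (bars) and called intervals (vertical ticks, shifted up or down only to keep them apart) within 5 kb of the start of each gene; the x axis is the distance in bp in the direction of transcription. Intervals stack near 0 in all 10 genes, and the regions over the starts of Sparc, Adamts1 and Ctgf reach farther into the gene than those of Postn and Col3a1.

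The promoters fell into an island and a non-island group. A CpG island, a GC-rich stretch typical of broadly used promoters, lay in the region over the start at Adamts1, Ctgf, Col4a1, Col4a2 and Fn1. None lay over the start at Col1a1, Col1a2, Col3a1, Postn and Sparc. Thus 5 of 10 starts lacked an island, against 13.9% of the 10941 genes whose start lay inside a region. By the centre within 1000 bp the island was present at 5 of 9 genes, against 85.4% of all genes with such a region. The peak value had a median of 141 over the 5 genes with an island and of 57 over the 5 without. Over all genes with the start inside a region it was 37 with an island and 28 without. Col4a1 and Col4a2 share the region over their starts and both carry 141, so they are not separate readings. In genes with several regions the value need not come from the region over the start. Each of the 5 genes without an island lay above 42, the 75th percentile of all such genes without an island.

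Fibrillar collagens form the load-bearing fibres, and the members here are Col1a1 and Col1a2, the chains of type I collagen, and Col3a1, the chain of type III collagen. Col3a1 (chromosome 1, 45368491 to 45405865, plus strand, mm9) was assigned a single region, so its value of 68 belongs to that region. The region was the shortest over a start among the 10 genes, 828 bp from 45368071 to 45368899, with intervals 27 and 43 bp upstream. Of 632 genes with a single region that covers the start and holds no island, 98.3% had a lower value than Col3a1. Of all genes with the start inside a region, only 7.81% had a shorter region there.

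Col1a2 (chromosome 6, 4455697 to 4491543, plus strand) had the lowest value of the 10, 44, with 69.5% of all genes lower. Its region over the start spanned 4455086 to 4456534 and held 3 intervals, at 49 bp upstream and at 63 and 127 bp downstream. A second region of 1 interval was centred 2466 bp upstream. Col1a1 (chromosome 11, 94797584 to 94813181, plus strand) had a value of 57 from 5 regions. The region over its start, 94796987 to 94798946, held 2 intervals at 16 and 80 bp upstream. Upstream of it lay 3 regions of 1 interval each, centred 1972, 6723 and 8416 bp from the start. The fifth Col1a1 region, centred 22090 bp past the start and beyond the end of the gene, held 2 intervals and also named Sgca, the alpha-sarcoglycan gene, and Hils1, a spermatid histone H1 gene. Hils1 carried a peak value of 23 and Sgca of 38, so the downstream region cannot have exceeded 23 and the value of 57 came from a region nearer to Col1a1. Neither partner of type I collagen had an island at its start, and both peak values were below that of Col3a1.

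Type IV collagen is the network-forming collagen of basement membranes, and Col4a1 and Col4a2 encode its most widespread chains from a head-to-head pair. Col4a1 (chromosome 8, 11198431 to 11312730, minus strand) and Col4a2 (11313024 to 11449215, plus strand) start 294 bp apart in the deposited annotation. A single region of 3580 bp with a CpG island and 3 intervals, from 11311395 to 11314975, covered both starts. The intervals lay 38, 38 and 54 bp upstream of Col4a1, which places them 256, 256 and 240 bp upstream of Col4a2. Both genes carried 141, with 98.0% of all genes lower, and the 5 regions they share prevent assigning that value to either. A stretch of 30 bases around both starts is shown because RefSeq (GRCm38.p6) begins the transcripts of the pair there, in opposite directions and overlapping by 22 bases; it is written 5′ to 3′ on the strand of Col4a2. The capitals mark a GC box, GGGCGG, which lay on the Col4a2 strand with its first base at position 8 counted from 1 at the first base of Col4a2.
Col4a1 and Col4a2, chr8:11312801-11312830, plus strand: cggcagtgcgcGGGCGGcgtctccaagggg

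TFIIB regions also lay along the body of the Col4 pair. Col4a2 was assigned 16 regions, a number reached or exceeded by 5 genes of the table, itself included, and Col4a1 was assigned 10. Of 1464 genes at least 100 kb long, 20 had 10 or more regions (1.37%), and the median was 2. The pair together held 21 different regions between 11252868 and 11458371. Of these, 18 were made of 1 interval and the region over the starts was the only one with an island. Inside Col4a1, 4 regions of 1 interval lay close together, centred 50472, 52445, 54647 and 59318 bp from the start. Inside Col4a2, regions of 2 intervals were centred 27857 and 62396 bp from the start. Past the end of Col4a2 lay 2 regions of 1 interval that also named Rab20, a small GTPase gene, whose own peak value was 44.

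**Figure D3:**
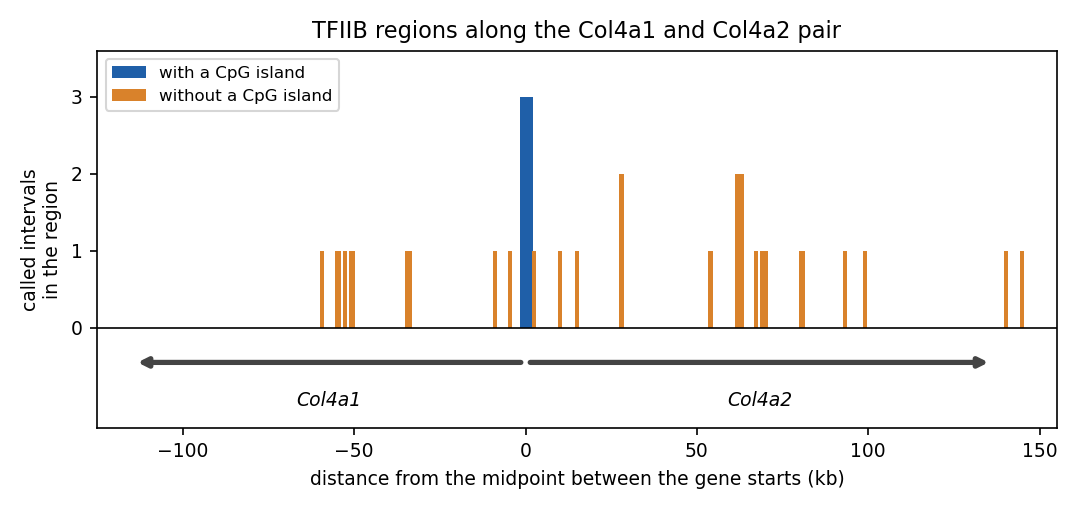
Number of called intervals (y axis) in each of the 21 regions along Col4a1 and Col4a2, by distance in kb from the midpoint between the gene starts; arrows show the genes and their direction. Bar width follows region length, with a minimum width so that short regions are visible. The region over the starts holds 3 intervals and a CpG island, 2 regions inside Col4a2 hold 2 intervals, and the other 18 hold 1.

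The other type IV collagen genes are arranged in head-to-head pairs too, with chains of restricted tissue distribution, and had lower values. Col4a3 and Col4a4 shared a region over their starts with no island. That was the only region of Col4a4, which had a value of 11, so the 47 of Col4a3 came from its second region. Col4a5 had 13, and Col4a6, whose start lay outside the region the genes share, also had 13. The pair Col4a1 and Col4a2 thus had the highest value of the 3 type IV pairs, and the only one with an island over its starts.

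Fn1 encodes fibronectin, the adhesive glycoprotein of the provisional matrix on which collagen is laid down. The gene (chromosome 1, 71632097 to 71699745, minus strand) was assigned a single region, from 71699060 to 71700745, with a CpG island and 3 intervals, 2 of them 1 bp inside the gene and the other 47 bp upstream. Its value was 57. The region also named LOC100042814, a plus-strand gene model that starts at 71699667, inside Fn1, and that carried the same 57 as its only region is the same. Of 4752 genes with a single region that covers the start and holds an island, 87.5% had a lower value than Fn1.

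Matricellular proteins signal to cells more than they build structure. Ctgf, a CCN-family protein induced by TGF-beta and by mechanical load, had 170, with 98.7% of all genes lower. The gene is short (chromosome 10, 24315313 to 24318486, plus strand), and its region over the start, 24314739 to 24317400, reached 2087 bp downstream, 65.8% of the length of the gene. The 3 intervals of that region lay 1, 17 and 17 bp upstream of the start. A second region of 1 interval lay upstream, centred 3846 bp from the start. Sparc, a collagen-binding protein also called osteonectin, had 78 (chromosome 11, 55208003 to 55233368, minus strand). The region over its start was 4497 bp long, from 55229539 to 55234036, longer than that of 99.0% of genes with the start inside a region. It reached 3829 bp into the gene and 668 bp upstream, so its centre lay 1581 bp from the start although its 3 intervals lay 8, 8 and 56 bp downstream. This is why Sparc was not counted by the centre of its region. Among all genes a region over a start reached a median of 747 bp downstream and 661 bp upstream. Sparc had 2 further regions of 1 interval, centred 13647 bp inside the gene and 8567 bp upstream.

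Postn encodes periostin, a matricellular protein of activated fibroblasts and of the developing valves. It had 55 (chromosome 3, 54165047 to 54194954, plus strand), with a short region of 935 bp over the start, from 54164494 to 54165429. Its 3 intervals lay 55 and 23 bp upstream and 9 bp downstream. A second region of 1 interval was centred 2509 bp upstream. The Postn region was short and without an island, as was the separate one of Col3a1. Only 12.3% of genes with the start inside a region had a shorter region there than Postn.

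Adamts1 is a secreted metalloprotease that cleaves proteoglycans such as versican. It had the highest value of the 10 genes, 218, at rank 62 of all genes (chromosome 16, 85794072 to 85803344, minus strand). Its single region, from 85800504 to 85805215, was also the longest over a start among the 10, at 4711 bp, and held 6 intervals. Only 67 regions over a start (0.689%) held 6 or more. The intervals fell in 3 places: at the start and 16 bp upstream of it, 1296 and 1328 bp upstream, and 1744 bp inside the gene. The region covered 30.6% of the gene. Of the 4752 genes with a single region that covers the start and holds an island, 99.7% had a lower value.

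The 5 genes with the highest values, from 78 to 218, were those with the longest regions over the start, 2661 to 4711 bp, the Col4 pair sharing its region. The other 5 had regions of 828 to 1959 bp and values of 44 to 68. Within these sets the order did not follow length. Col3a1 had the shortest region and the highest value of its set, 68. Sparc, with a region of 4497 bp, had 78, and Ctgf, with 2661 bp, had 170. The value is given per gene, and only 3 of the 10 genes had a single region. For the others it need not come from the region over the start. Of the 10941 genes with the start inside a region, 9.83% had a region there longer than 2500 bp.

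Promoter sequence is shown for Adamts1, Postn and Col1a2, as the gene with the highest value of the 10 and 2 genes with no island. The windows are RefSeq's (GRCm38.p6), which hold 250 bases before and 50 after a start, and the last 150 bases before the start are printed, 5′ to 3′ on the strand of the gene. Windows were found for 7 of the 10 genes, and for 5 of them the RefSeq start could lie within 300 bp of the mm9 start, judged by the length of the gene and, where RefSeq lists more than 1 start, by the start that brings the lengths closest. The windows of Col3a1 and Sparc were set aside, since their RefSeq genes were 794 and 556 bp longer than in mm9 and the start may be another one. Capitals mark TATAAA (the TATA box), GGGCGG (the GC box) and CCAAT (the CCAAT box), searched on both strands; none of these letters overlapped.
Adamts1, chr16:85803114-85803263, minus strand: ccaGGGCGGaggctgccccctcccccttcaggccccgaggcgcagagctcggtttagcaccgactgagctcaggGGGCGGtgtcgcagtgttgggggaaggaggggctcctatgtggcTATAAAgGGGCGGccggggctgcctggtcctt
Postn, chr3:54360957-54361106, plus strand: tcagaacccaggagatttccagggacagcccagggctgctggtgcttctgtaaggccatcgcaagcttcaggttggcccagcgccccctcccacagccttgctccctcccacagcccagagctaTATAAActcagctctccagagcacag
Col1a2, chr6:4505468-4505617, plus strand: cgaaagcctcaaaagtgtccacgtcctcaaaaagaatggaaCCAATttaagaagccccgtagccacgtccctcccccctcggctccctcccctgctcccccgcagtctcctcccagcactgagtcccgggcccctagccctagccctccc

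TATAAA, the sequence bound by TATA-binding protein, began 32 bases before the start of Adamts1 and 26 bases before that of Postn. The windows of Col4a1, Col4a2 and Col1a2 held no TATAAA on either strand. Over 32851 windows of all genes, 1.99% held TATAAA on the strand of the gene with its first base 40 to 20 bases before the start, and 13.6% held it anywhere on either strand. For comparison, the 3 intervals nearest the mm9 start lay 0 to 16 bp upstream in Adamts1, and in Postn 55 and 23 bp upstream and 9 bp downstream. RefSeq lists 2 starts for Postn, and the window shown is at the inner one, 1840 bp from the outer. With that choice the gene lengths leave room for the RefSeq and mm9 starts to differ by 27 bp in Postn, and by 14 bp in Adamts1. Adamts1 held a GC box 147, 76 and 25 bases before the start, the last with 1 base between it and the TATA box. Such a box was present in 35.7% of all windows, and a CCAAT box in 37.4%. Col1a2 had a CCAAT box 109 bases before the RefSeq start and another on the opposite strand at the start itself. Its window also held GC boxes 205 and 188 bases before the start, outside the printed bases. The Col4a2 window held GC boxes 192 and 48 bases before the start, the latter on the opposite strand. A CCAAT box lay 32 bases before the Col4a2 start, and another, on the opposite strand, 145 bases before that of Col4a1. These matches describe letters in a window, and TATAAA beyond these windows was not searched.

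Regions away from the starts were nearly all of 1 interval. The 10 genes had 29 regions that covered no annotated start, of which 26 (89.7%) were of 1 interval, against 68.7% of the 10635 such regions in the table. None of the 29 held a CpG island, against 18% of the table's. Their median length was 1121 bp, against 871 bp. Of the 29, 20 belonged to the Col4 pair, so these counts mostly describe that locus. Each of those 26 regions came from 1 library, and which one was not read.

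The 10 genes belong to wider sets of matrix genes, described here over 10 lists of 157 genes, of which 141 were in the table. The 131 listed genes other than the 10 had a median peak value of 32, against 34 over all genes. At or above the 75th percentile were 37 of the 131 (28.2%), against 25.8% of all genes, a share near the background. The start lay inside a region at 112 of the 131 (85.5%), against 75.6% of all genes. Of those 112, 35 (31.2%) had no island, against 13.9% of all genes with the start inside a region.

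**Figure D4:**
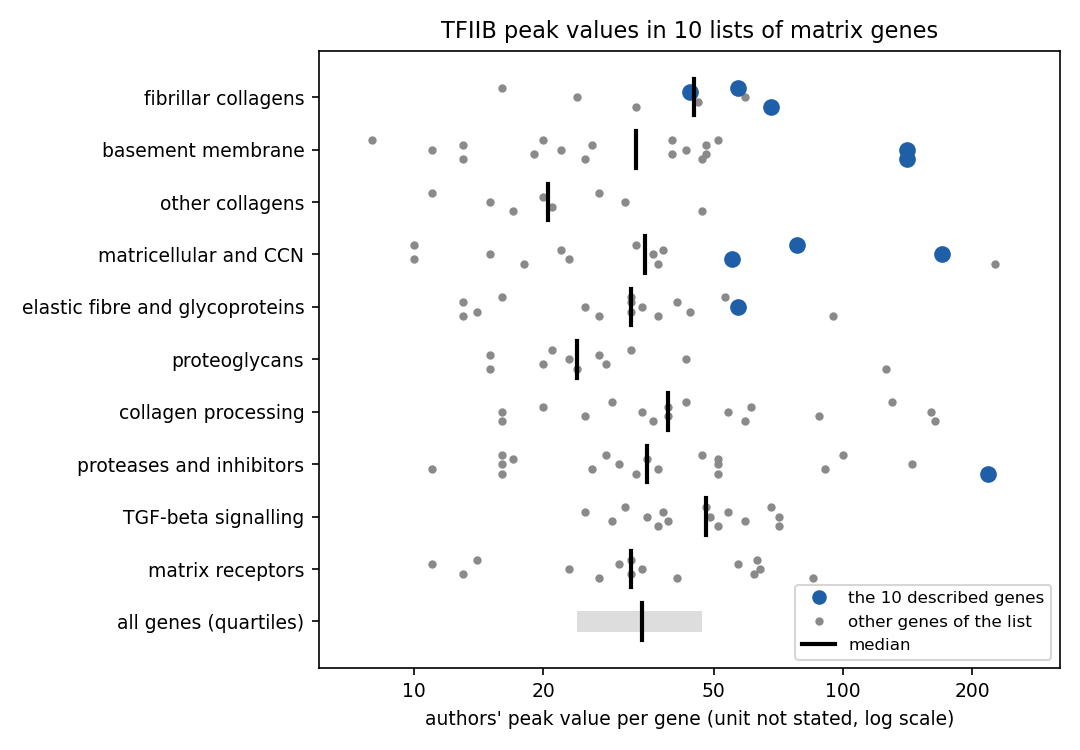
Authors' peak value per gene (x axis, log scale, unit not stated) in 10 lists of matrix genes, with the 10 described genes as large points, the other genes as small points and the median of each list as a bar; points are shifted vertically only to keep them apart. List medians lie between 20.5 for other collagens and 48 for TGF-beta signalling, and the bottom row shows the quartiles of all genes, 24, 34 and 47.

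Among fibrillar collagens, 8 of 10 genes were in the table, with a median of 45 including the 3 described above. After Col3a1 at 68 came Col2a1, the cartilage collagen, at 59, and Col1a1 at 57. The single region of Col2a1 had its nearest interval 40548 bp downstream of the start. The lowest was Col5a3 at 16. Col11a1 and Col24a1 gave no row. Other collagens had the lowest median, 20.5 over 8 genes, led by Col8a2 at 47, Col8a1 at 31 and Col16a1 at 27, with Col14a1 lowest at 11. The basement membrane list had a median of 33 over 18 genes. After the Col4 pair came the laminin gene Lamc1 at 51, and the lowest was the laminin gene Lama3 at 8. Col18a1, Nid1 and Agrn gave no row.

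Matricellular and CCN genes ranged most widely, from 10 at Thbs4 and Smoc1 to 226 at Cyr61 (now Ccn1), with a median of 34.5 over 14 genes. Cyr61, a CCN protein close to Ctgf, had a single region over its start with islands and a nearest interval 15 bp upstream. Cyr61, Ctgf and Sparc led the list. Nov, Tnc and Spp1 gave no row. Among elastic fibre genes and glycoproteins, with a median of 32 over 16 genes, Efemp2 had 95, Fn1 57 and Ltbp2 53, and the lowest were Fbn2 and Mfap2 at 13. The region over the Efemp2 start named 4 genes, so its value need not be its own. Fbln5 and Efemp1 gave no row. Proteoglycans had a median of 24 over 11 genes, led by Sdc4, a syndecan of focal adhesions, at 126, Sdc2 at 43 and Vcan at 32. Sdc1 and Ogn were lowest at 15, and Lum and Fmod gave no row.

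Of 17 genes that process collagen, 7 were at or above the 75th percentile of peak values, against 25.8% of all genes. At or above the 95th percentile were 4 of the 17, against 5.04% of all genes. The median of the list was 39, against 34 over all genes. P4ha1 at 164 and P4hb at 160 encode the subunits of prolyl 4-hydroxylase, which stabilises the collagen triple helix, and Serpinh1 at 130 encodes the collagen chaperone HSP47. The region over the P4hb start named 3 genes and that of P4ha1 named 2, while that of Serpinh1 named Serpinh1 alone, with no island. The lowest were Loxl4 and Leprel1 at 16. Among proteases and inhibitors, with a median of 35 over 19 genes, high values beside that of Adamts1 included the metalloprotease inhibitor Timp2 at 100. Timp1 was lowest at 11, with a region over its start that named 3 genes. Adamts9, Mmp3 and Mmp9 gave no row.

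TGF-beta signalling drives the transcription of many of these genes in fibroblasts. All 15 listed genes were in the table with the start inside a region, against 75.6% of all genes. Their median was 48, against 34 over all genes. At or above the 75th percentile were 8 of the 15, against 25.8% of all genes. At or above the 95th were 0 of the 15, against 5.04%. The highest were the receptor gene Tgfbr1 and the inhibitory Smad7, at 71 each, and Smad3 at 68, and the lowest was the ligand gene Tgfb2 at 25. Matrix receptors had a median of 32 over 15 genes, led by the collagen receptor gene Ddr2 at 85, the integrin gene Itgav at 64 and the dystroglycan gene Dag1 at 63. Itga2 was lowest at 11, and Itga8 gave no row. No list was tested, since the libraries have no replicates and the lists were chosen with results in view.

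The labelled tissue was checked against markers of heart cell types. Cardiomyocyte markers were in the table at 10 of 10 genes, with a median of 95. Their values ran from 30 at Nppa to 207 at Actc1, the cardiac actin gene. The start lay inside a region at all 10, against 75.6% of all genes. So it did at 8 of 10 fibroblast and 9 of 10 endothelial markers in the table. For smooth muscle and pericyte markers it was 7 of 8, and for macrophage and leukocyte markers 7 of 7. Fibroblast markers were in the table at 10 of 12 genes, with a median of 35.5 and values from 10 at Pdpn to 156 at Vim. That list holds Col1a1 and Col1a2, and without them the median was 25 over 8 genes. Endothelial markers were in it at 10 of 10, with a median of 31.5, and smooth muscle and pericyte markers at 8 of 8, with 25.5. Macrophage and leukocyte markers were in it at 7 of 8, with a median of 16. Of 8 genes of other tissues, 2 were in the table, Prm1 at 65 and Gfap at 41, neither with its start inside a region. Their nearest intervals lay 11284 and 15917 bp downstream of the start, and whether these fall inside the genes was not examined. The median of the 2 genes, 53, was above those of the fibroblast, endothelial, smooth muscle and leukocyte lists. The part that the mix of cell types has in the values of the matrix genes was not tested.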

How the data were processed

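Per the labels' protocols, ChIP, libraries and Illumina sequencing were done by a service company. Coordinates are in mm9, per the submitters' processing notes. How reads were aligned, intervals called and signal scaled to depth is not given in the sources used here. A peak value that the authors deposited per gene is a signal in whole numbers from 7 to 298. Per the file headers, the tables give positions, lengths, numbers of intervals, islands and genes, and the distance of each interval from the gene start. The 15 per-library columns carry codes that match no sample label and were not used, nor were the library names beside intervals, so the per-library comparison planned was not run.

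The start of a minus-strand gene is its highest coordinate. Region counts per gene matched the regions naming it in 100% of genes, and 99.99% of 56698 interval positions fell inside a region naming the gene. Where a gene shared the only region of another gene, its peak value was at or above the other's in 100% of 2136 such pairs, which bears on reading it as a maximum. A percentage of genes with a lower value counts strictly lower values over the whole table. The genes named are the 10 members, genes sharing a region with them, and in each list the 3 highest, the lowest and those without a row; a few others were named after their values were seen, and 1 gene that the rule would name is not reported here. The members and lists were chosen with earlier results of these data known. Older symbols were matched through the RefSeq gene table (GRCm38.p6), which also gave gene lengths for choosing promoter windows. The start-site, percentile and motif steps were tested on simulated data with known answers. Python 3.11.15, pandas 2.3.3 and matplotlib 3.10.9 were used.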

Additional observations from a re-analysis of the deposited data

How the results depend on the processing

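The number of genes with a start-site region was 8 of 10 with the region centred within 500 bp, where Ctgf was lost beside Sparc, and 10 of 10 within 5000 bp or with the start inside the region. The island count was 4 of 8 within 500 bp and 5 under the other settings, and no start-site region was of 1 interval under any of the 4 settings. The median of the members' percentages of genes with a lower peak value was 92.3 against all genes. It was 89 against genes with the same number of regions, where Col4a2 had only 2 genes in its class, itself included, 91.7 against genes with a start-site region and 91 with the Col4 pair counted once, when the median peak value was 68. Against genes of the same island class, a setting chosen after seeing the data, it was 94. Genes at or above the 75th percentile of the genes they were set against numbered 9 against all genes, 8 or 9 under the other settings fixed earlier and 10 of 10 against genes of the same island class. No paired analysis was possible because each group has 1 library and the per-library columns match no label. The depth of the libraries and the calling threshold, which set how many weak regions were listed, are unknown.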

Other observations

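Some matrix genes of the wider lists had TFIIB regions only away from their annotated start. Of the 131 listed genes other than the 10, 19 had no region over the start. Among them was Dcn, encoding the small proteoglycan decorin, with 1 region, a value of 23 and its nearest interval 2761 bp upstream. Ogn, encoding osteoglycin, had 1 region, a value of 15 and its nearest interval 1088 bp inside the gene. Col2a1 and Col8a2 had single regions, with nearest intervals 40548 and 34906 bp downstream of the start and values of 59 and 47. Vtn, encoding vitronectin, a plasma protein of the liver, had 37 with its nearest interval 12780 bp downstream of the start. Whether the regions of Col2a1, Col8a2 and Vtn lie inside the gene or past its end was not examined. The genes named here were picked once their values were known.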
